A study of Homo sapiens with 12 samples.

Results

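Variant PRC1 partner genes encode proteins that join the Polycomb repressive complex 1 (PRC1) in its variant forms. The 10 genes KDM2B, USP7, RYBP, YAF2, AUTS2, DCAF7, L3MBTL2, MGA, E2F6 and MAX were taken by name from the RefSeq gene table of GRCh38, out of 20037 protein-coding genes, and every peak that touched the gene body or the 5 kb on either side was assigned to the gene. Chromatin immunoprecipitation and sequencing (ChIP-seq) had been done in H1, an established human embryonic stem cell line grown in mTESR1. In H1 cells treated with a YTHDF1 shRNA (YTHDF1 KD) the antibody was to YTHDF1. In untreated H1 cells, called wild-type here, the antibodies were to YTHDF1, RNF2 and H2AK119ub. The 12 libraries formed 6 groups of 2 replicates, 4 of them ChIP and 2 input. The authors had merged the replicates of each ChIP group into 1 peak list, so each gene has 1 value per list, no spread between replicates exists and no test between samples could be made. How far the shRNA lowered YTHDF1 was not analysed here. Peak lists hold no expression, so the stem cell label could not be checked against expressed markers. Of 3 pluripotency genes with a listed start, SOX2 alone had an RNF2 peak within 2 kb of it (6.56-fold). All 4 such developmental genes did, with up to 105-fold at HOXD11. An H2AK119ub island lay at the start of 2 of the 3 pluripotency genes and of all 4 developmental genes. Among all coding genes with a listed start, 66.6% had RNF2 there and 74.3% had H2AK119ub. These few genes do not check the label.

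PRC1 is an enzyme of chromatin that attaches ubiquitin to a lysine of histone H2A (H2AK119ub) through RNF2 or its relative RING1. In canonical complexes a CBX protein recognises the histone mark of PRC2. In variant complexes RYBP or YAF2 takes the place of this CBX protein, and a PCGF protein sets the type. These complexes are known as the main source of H2AK119ub in embryonic stem cells. YTHDF1 is known as a cytoplasmic reader of N6-methyladenosine in RNA, and the title of the series connects it with H2AK119ub written by PRC1.

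Start sequences from the RefSeq promoter table (GRCh38.p14, 250 bases before to 50 after a listed start) matched all 10 genes, with 18 starts in all. A few are shown because the DNA at these starts differs in features that the encoded proteins themselves recognise. The E2F6 start holds the E2F site TTCCCGC on the strand opposite to the one printed, 14 bases past the start base, and the YAF2 start holds the E-box CACGTG, the palindrome bound by MAX with MGA, at position -131 from it. Capitals mark these motifs:
E2F6 (chr2:11466112-11466411, minus strand): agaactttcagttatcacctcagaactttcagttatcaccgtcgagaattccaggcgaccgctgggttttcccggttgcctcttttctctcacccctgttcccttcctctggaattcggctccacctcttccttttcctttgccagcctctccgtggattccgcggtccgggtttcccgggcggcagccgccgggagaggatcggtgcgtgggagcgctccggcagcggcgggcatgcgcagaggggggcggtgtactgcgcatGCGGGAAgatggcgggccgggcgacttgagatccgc
YAF2 (chr12:42238199-42238498, minus strand): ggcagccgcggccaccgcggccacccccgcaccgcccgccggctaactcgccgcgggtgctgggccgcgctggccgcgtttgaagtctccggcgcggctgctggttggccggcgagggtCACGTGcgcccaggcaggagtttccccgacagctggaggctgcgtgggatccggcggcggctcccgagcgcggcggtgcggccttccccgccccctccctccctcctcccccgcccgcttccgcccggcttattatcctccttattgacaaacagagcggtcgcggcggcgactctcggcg

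Both strands were searched. CACGTG occurred in 7.26% and TTCCCGC in 6.55% of the 35116 RefSeq promoters of this length, and each occurred in 1 of the 18 starts of these genes. The next sequences show the density of CG dinucleotides, in capitals, which the zinc finger of KDM2B binds when they are unmethylated. AUTS2 is shown for the strongest RNF2 peak of the 10 genes. USP7 is shown at its most upstream start and at an internal start, and KDM2B at the start that lies inside a YTHDF1 peak:
AUTS2 (chr7:69598225-69598524, plus strand): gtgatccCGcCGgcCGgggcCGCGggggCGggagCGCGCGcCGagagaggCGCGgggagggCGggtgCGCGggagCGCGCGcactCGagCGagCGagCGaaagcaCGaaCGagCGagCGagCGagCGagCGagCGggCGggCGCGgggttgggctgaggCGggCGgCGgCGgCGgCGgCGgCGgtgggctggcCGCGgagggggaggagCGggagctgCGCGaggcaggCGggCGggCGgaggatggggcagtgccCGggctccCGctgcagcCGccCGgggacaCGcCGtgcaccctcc
USP7 most upstream start (chr16:8963857-8964156, minus strand): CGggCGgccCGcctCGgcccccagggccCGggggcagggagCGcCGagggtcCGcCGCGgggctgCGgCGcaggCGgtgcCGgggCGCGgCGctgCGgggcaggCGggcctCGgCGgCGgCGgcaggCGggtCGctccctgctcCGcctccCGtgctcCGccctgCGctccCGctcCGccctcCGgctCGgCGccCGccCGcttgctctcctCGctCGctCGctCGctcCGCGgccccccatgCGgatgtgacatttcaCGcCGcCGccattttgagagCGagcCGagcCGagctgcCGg
USP7 internal start (chr16:8936590-8936889, minus strand): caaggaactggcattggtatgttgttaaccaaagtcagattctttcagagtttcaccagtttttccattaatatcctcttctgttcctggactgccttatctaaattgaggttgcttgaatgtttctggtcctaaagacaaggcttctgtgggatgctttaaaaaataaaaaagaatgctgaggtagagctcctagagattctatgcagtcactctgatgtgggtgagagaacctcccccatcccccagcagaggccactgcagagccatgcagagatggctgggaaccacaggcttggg
KDM2B (chr12:121579610-121579909, minus strand): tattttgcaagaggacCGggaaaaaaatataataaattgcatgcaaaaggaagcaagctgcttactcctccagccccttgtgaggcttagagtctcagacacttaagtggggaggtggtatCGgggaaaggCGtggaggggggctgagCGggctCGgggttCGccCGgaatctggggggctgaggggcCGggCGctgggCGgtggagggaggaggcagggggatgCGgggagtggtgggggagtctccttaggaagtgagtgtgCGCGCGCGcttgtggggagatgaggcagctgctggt

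The AUTS2 sequence held 55 CG dinucleotides, more than 99.6% of RefSeq promoters hold, and the most upstream USP7 sequence held 50. The internal USP7 sequence held 0 and the KDM2B sequence 15, where the median promoter held 14. The KDM2B starts 121467378, 121580246 and 121581023, not printed, held 46, 33 and 15. The starts of YAF2, E2F6 and RYBP held 44, 28 and 20, and the most upstream MGA start held 21. Whether the CG count goes with RNF2 was not tested. A motif match is a description of the letters and not a mapped binding site.

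RNF2 and H2AK119ub were present at every one of the 10 genes. An RNF2 peak lay in the gene or its flanks at 10 of 10 genes, and the same held for 73.5% of all protein-coding genes. An H2AK119ub island lay there at 10 of 10 genes, and at 80.0% of all protein-coding genes. Within 2 kb of the most upstream start, a window that does not grow with gene length, RNF2 was again at 10 of 10, against 66.6% of the 15843 coding genes with a listed start, and H2AK119ub at 10 of 10, against 74.3%. Of all 18 listed starts, the most upstream ones included, 16 had both features within 2 kb, and the 2 without them were the internal starts of USP7. The share over the listed starts of all coding genes was not counted. All 10 most upstream starts lay inside an H2AK119ub island, and 8 of them inside an RNF2 peak. The shares of all coding genes at the start base itself were not counted. Within 500 bp of the start, H2AK119ub was at 10 of 10 genes (73.1% of coding genes) and RNF2 at 9 (64.7%).

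The strength of RNF2 at the start spanned an order of magnitude. The fold enrichments named here are the authors' own value for each peak. The median over the 10 genes was 9.84-fold, and the median over the 10551 coding genes with an RNF2 peak at the start was 4.77-fold. Of the 10 genes, 7 lay above that median, and 5 had at least 10-fold enrichment, a round value chosen after the values had been seen, which 10.3% of those coding genes reached. The order from high to low was AUTS2, YAF2, E2F6, MGA, RYBP, USP7, L3MBTL2, MAX, KDM2B and DCAF7. With no replicate values, neighbours in this order cannot be told apart by their spread, and MAX, KDM2B and DCAF7 had 3.50-fold, 3.50-fold and 3.40-fold.

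**Figure D1:**
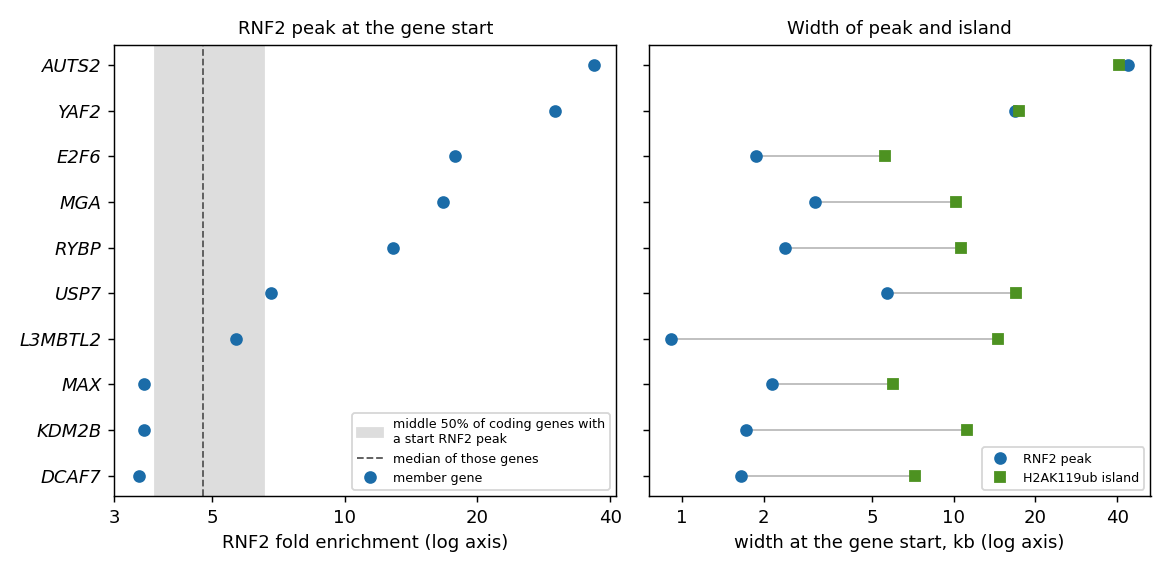
Left, RNF2 fold enrichment (log axis) of the strongest RNF2 peak within 2 kb of the most upstream start of each gene, with the middle 50% (3.71-fold to 6.56-fold, grey) and the median (4.77-fold, dashed) of all coding genes with such a peak. Right, width in kb (log axis) of that RNF2 peak (circles) and of the strongest H2AK119ub island at the start (squares). AUTS2 and YAF2 stand at the top of both panels, and in 9 of 10 genes the island is wider than the RNF2 peak. At AUTS2 the RNF2 peak also overlaps another island, which is not drawn.

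RYBP and YAF2 are paralogs that occupy the same place in variant PRC1, and RYBP is known to bind H2AK119ub. The start of YAF2 (chromosome 12, 42157104 to 42238248) lay in an RNF2 peak of 30.0-fold that was 16.8 kb wide, wider than the start peaks of 97.3% of coding genes with one. Its H2AK119ub island of 17.4 kb overlapped this peak over the start. RYBP (chromosome 3, 72374597 to 72446623) had a 12.9-fold RNF2 peak of 2.40 kb that ended 38 bp upstream of the start, and a second of 3.28-fold farther upstream. Both RYBP peaks lay in a single island of 10.6 kb that reached 622 bp past the start. The paralogs therefore both carried PRC1 features at the start, with an RNF2 peak several times wider at YAF2. For YTHDF1, YAF2 had 3 peaks in its body, of 3.37-fold, 2.83-fold and 2.71-fold, all outside RNF2 and H2AK119ub, and RYBP had 0. These were weak calls, with a −log10 of the q-value of 2.85, 2.23 and 1.51, where the lowest in the list was 1.502. With 1 merged list, 3 such peaks against 0 do not establish a difference between the paralogs.

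The partners of the PCGF6 complex bring it to DNA or to nucleosomes, and 2 of its 4 DNA-bound or chromatin-bound members here had strong RNF2 peaks. E2F6, a repressor of the E2F family, is the shortest of the 10 genes at 21.8 kb (chromosome 2, 11444375 to 11466161). Its single RNF2 peak had 17.8-fold enrichment, higher than at 95.7% of coding genes with a start peak, over only 1.88 kb, close to the median width of 1.85 kb. That peak covered the start and the E2F site printed above, with its summit 290 bp past the start. MGA, a protein with a T-box and a basic helix-loop-helix domain that pairs with MAX, had a 16.7-fold RNF2 peak of 3.10 kb at its most upstream start on chromosome 15 (41619769 to 41622867). A second MGA peak of 8.90-fold and 4.45 kb covered both of its downstream listed starts, 41660405 and 41660747. A further MGA peak of 4.93-fold, in the 3′ flank, lay at the start of the neighbouring gene MAPKBP1.

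L3MBTL2 and MAX had lower values. L3MBTL2, which has MBT repeats that bind histones, had 1 RNF2 peak of 5.66-fold and 0.914 kb with its summit 8 bp before the start (chromosome 22, 41204903 to 41205816). Its H2AK119ub was much broader, with an island of 14.6 kb at the start and 3 more. These brought the covered share of its window to 49.4%, the highest of the 10 genes. An island of 18.4 kb among them began past the gene end and overlapped the neighbouring gene CHADL. That island and the one at the start both reached beyond the 5 kb flanks. MAX, the dimer partner of MGA and of MYC, had 1 RNF2 peak of 3.50-fold over both of its listed starts (chromosome 14, 65101167 to 65103311) and 1 island of 6.0 kb. MAX had the lowest covered share of its window for RNF2, 2.01%, and for H2AK119ub, 5.63%.

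KDM2B and USP7 belong to the PCGF1 complex, KDM2B as the protein that brings it to CG-rich DNA and USP7 as a ubiquitin protease. USP7 (chromosome 16, 8892097 to 8963906) had 1 RNF2 peak of 6.80-fold and 5.67 kb, which covered the CG-dense start printed above, inside an island of 17.0 kb. KDM2B (chromosome 12, 121408461 to 121582279) had 4 RNF2 peaks and 11 islands. The KDM2B peaks had 3.50-fold enrichment near its upstream starts and 4.45-fold at the downstream start 121467378, and the other two, of 4.12-fold and 3.15-fold, lay in the gene body. The RNF2 peak near the upstream starts of KDM2B began 1375 bp inside the most upstream start, so KDM2B alone lost its RNF2 call when the window was 500 bp or was set on the 5′ end of the gene in the gene table. Islands covered 35.3% of the KDM2B window, with 1 of 11.2 kb over the upstream starts.

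**Figure D2:**
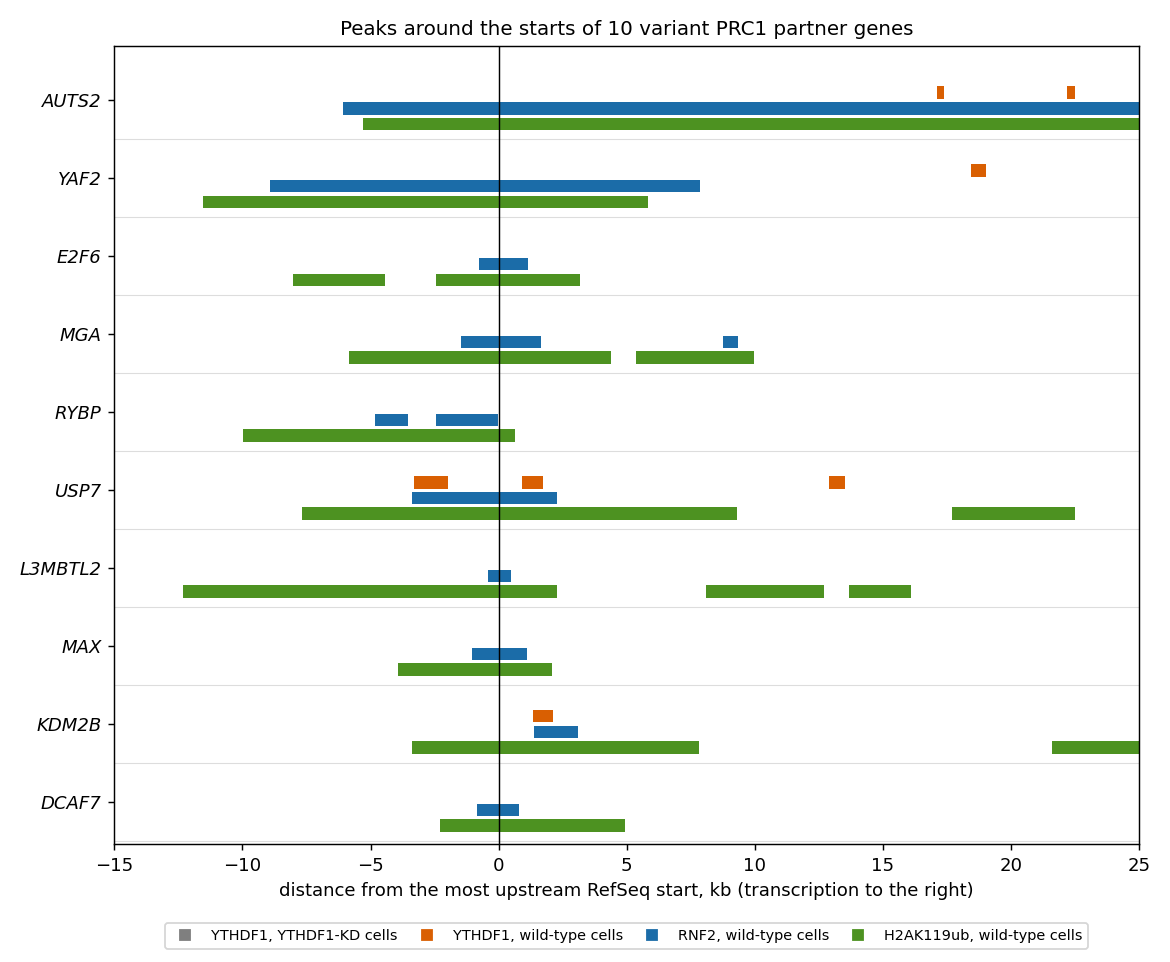
Peaks that touch each gene or its 5 kb flanks, drawn by distance in kb from the most upstream start (vertical line), with transcription to the right. Rows within a gene are YTHDF1 in YTHDF1 KD cells (0 peaks, so empty), then YTHDF1, RNF2 and H2AK119ub in wild-type cells. An island spans every start, and YTHDF1 lies near the start at USP7 and KDM2B only.

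AUTS2 and DCAF7 belong to the PCGF3 and PCGF5 complexes and stood at opposite ends of the order. DCAF7, a WD-repeat scaffold protein, had 1 RNF2 peak of 3.40-fold and 1.65 kb over its start (chromosome 17, 63549634 to 63551286), in an island of 7.20 kb. AUTS2, a neurodevelopmental gene whose protein is known to turn its PRC1 complex toward gene activation, had 22 RNF2 peaks and 23 islands over 1195.0 kb (chromosome 7, 69598475 to 70793506). The first AUTS2 peak, of 36.7-fold, was 43.7 kb wide and began at -6.1 kb from the start and reached into the gene, with its summit 10742 bp past the start. It was wider than 99.4% of start peaks, and AUTS2 was the 1 gene of the 10 whose RNF2 peak was wider than the island over its start, 40.6 kb. The wide AUTS2 peak also overlapped the next island, of 5.4 kb (69634601 to 69640000), which reached past the end of the peak. This comparison of widths therefore rests on where the islands were split.

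PRC1 features along AUTS2 fell into a 5′ and a 3′ stretch. In the first 100 kb there were 9 RNF2 peaks, 7 of them on H2AK119ub. From 100 to 900 kb there were 3 RNF2 peaks, of 2.97-fold to 3.60-fold, and 0 of them lay on H2AK119ub. Beyond 900 kb there were 10, from 984.9 to 1108.0 kb past the start and all on H2AK119ub. The strongest of these distal AUTS2 peaks had 11.4-fold enrichment (70692830 to 70699210) and covered the lncRNA gene LOC107986709. The next, of 9.77-fold (70595363 to 70598941), lay at the higher-coordinate end of another lncRNA gene, LOC124901668. YTHDF1 had 5, 4 and 7 peaks in the same 3 stretches, and none of its peaks lay between 450.1 and 917.6 kb. The limits of 100 and 900 kb were set after the positions had been seen.

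**Figure D3:**
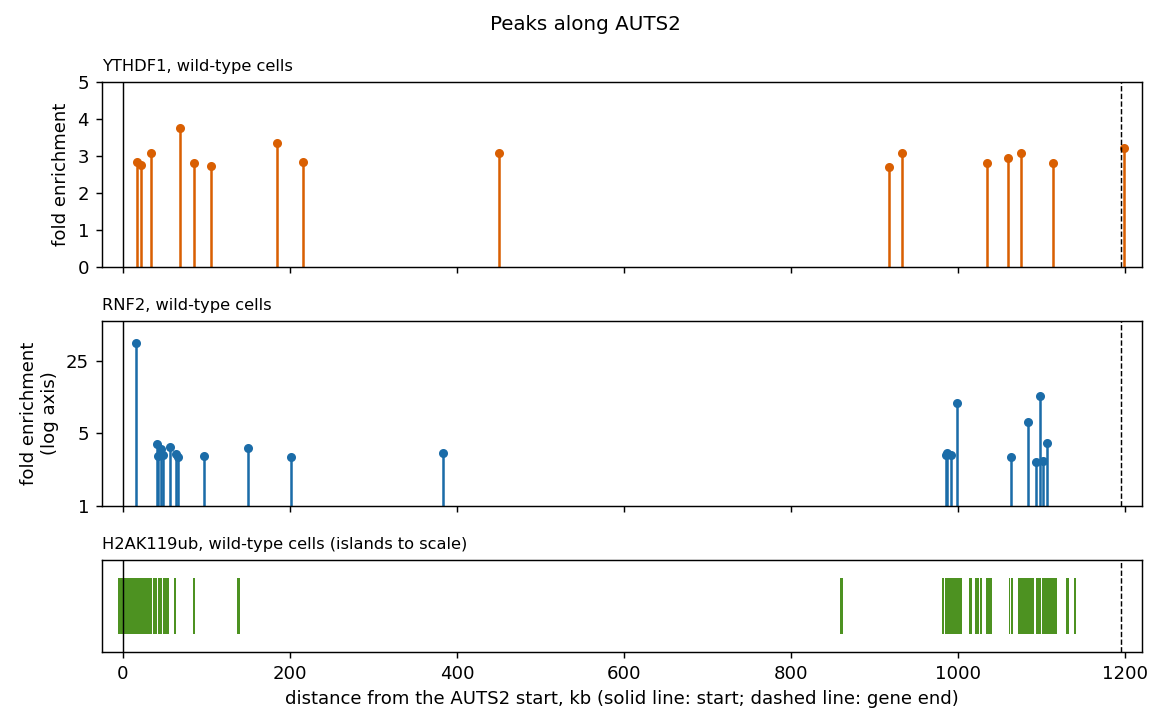
Peaks along AUTS2 by distance in kb from its start. Heights show fold enrichment of YTHDF1 peaks (linear axis) and RNF2 peaks (log axis) in wild-type cells, and bars in the lowest panel show H2AK119ub islands to scale. Peaks of all 3 lists are sparse in the middle of the gene, and the YTHDF1 peaks lie between 2.72-fold and 3.77-fold.

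Across all 10 genes, 34 of 40 RNF2 peaks overlapped H2AK119ub by at least 1 bp, which was 85.0% (exact binomial 95% interval 70.2 to 94.3%), and the share over the whole RNF2 list was 85.1%. Without AUTS2 the share was 17 of 18 peaks, or 94.4%. Of the 6 RNF2 peaks without the mark, 5 lay in AUTS2 and 1 in the YAF2 body. In the other direction, 28 of 53 islands overlapped RNF2, or 52.8% (38.6 to 66.7%), where the whole list gave 39.9%. Peaks of 1 gene share a locus and are not replicates, and these intervals cover counting error only. The median covered share of a gene window was 0.545% for YTHDF1, 5.22% for RNF2 and 14.2% for H2AK119ub, where the medians of all coding genes were 0.605%, 3.12% and 16.0%.

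**Figure D4:**
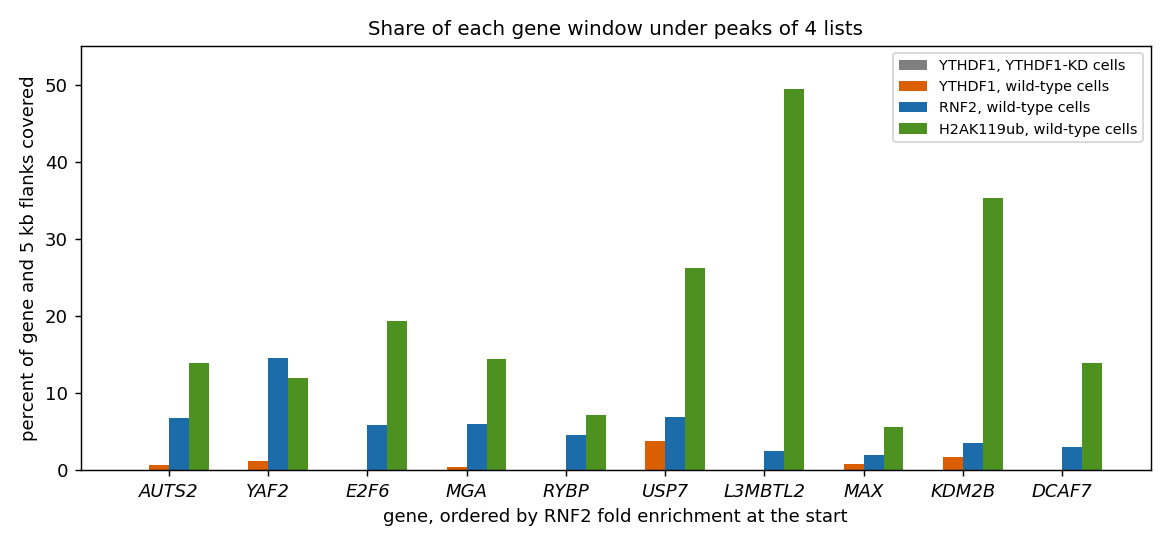
Percent of each gene window (gene and 5 kb either side) under peaks of each list, with genes ordered by RNF2 fold enrichment at the start. H2AK119ub covers from 5.63% at MAX to 49.4% at L3MBTL2, and YAF2 is the 1 gene where RNF2 covers more (14.5%) than H2AK119ub (11.9%). Only the part of a peak inside the window counts, and at YAF2 the start peak and island both run past the flank. In full, that island (17.4 kb) is wider than the RNF2 peak (16.8 kb).

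YTHDF1 in KD cells was found at 0 of the 10 genes, and at 0.963% of all protein-coding genes, from a list of 226 peaks. YTHDF1 in wild-type cells was found at 6 of 10, KDM2B, USP7, YAF2, AUTS2, MGA and MAX, close to the 59.2% of all protein-coding genes. All 6 also had RNF2 and H2AK119ub somewhere in the window, a state found at 49.7% of coding genes. Since all 10 genes had RNF2 and H2AK119ub, this joint count follows from the YTHDF1 count and is not a separate result. The 4 genes without a wild-type YTHDF1 peak were RYBP, DCAF7, L3MBTL2 and E2F6, the last 3 being the shortest of the 10. Among coding genes of like window length (1 of 10 equal classes), YTHDF1 peaks occurred at 54.0% in the class of E2F6, 58.3% in that of L3MBTL2 and 65.3% in that of DCAF7. The figure was 71.5% in the class of RYBP, USP7 and YAF2, 83.6% in that of MGA and MAX, and 92.4% in that of KDM2B and AUTS2. The density was 1.58 peaks per 100 kb over the windows of the 10 genes and 1.94 over those of all coding genes.

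At the starts, YTHDF1 in KD cells was at 0 of 10 genes (0.436% of coding genes), and YTHDF1 in wild-type cells at 2 of 10, KDM2B and USP7 (22.7% of coding genes). These same 2 genes had YTHDF1, RNF2 and H2AK119ub together at the start, as did 19.0% of coding genes. With RNF2 and H2AK119ub at all 10 starts, this joint count again follows from the YTHDF1 count. At USP7 a 3.65-fold YTHDF1 peak (8962177 to 8963008) lay 898 bp inside the start and a 2.91-fold peak (8965879 to 8967191) lay 1973 bp before it, both under the single RNF2 peak. The USP7 pair fell on the opposite ends of the antisense lncRNA gene USP7-AS1 (8962713 to 8966990). At KDM2B a 3.42-fold YTHDF1 peak (121578898 to 121579682) covered the listed start 121579659, whose sequence is printed above, and overlapped both RNF2 and H2AK119ub. No YTHDF1 peak of the 10 genes came within 500 bp of a most upstream start.

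Of the 32 YTHDF1 peaks, 20 lay on neither RNF2 nor H2AK119ub, and 6 on H2AK119ub alone. KDM2B had 4 further peaks of 2.62-fold to 3.08-fold in its body, 2 on H2AK119ub alone (121452010 to 121452892 and 121530561 to 121531205) and 2 on neither, of which 121409924 to 121410330 also lay in the overlapping gene RNF34. USP7 had further peaks of 3.22-fold and 2.94-fold, 382 and 746 bp from its internal starts, with neither RNF2 nor H2AK119ub. The first of these internal USP7 starts is the sequence without a CG dinucleotide printed above. Of the 16 YTHDF1 peaks at AUTS2, 3 lay in the wide 5′ RNF2 peak, 4 on H2AK119ub alone and 9 on neither. Both MGA peaks, of 3.05-fold and 2.81-fold, and both MAX peaks, of 2.81-fold and 2.73-fold, lay outside PRC1 features. Both MAX peaks (65048370 to 65048798 and 65004240 to 65004691) also lay in the overlapping genes FNTB and CHURC1-FNTB. Over the 10 genes, 6 of 32 YTHDF1 peaks overlapped RNF2, or 18.8% (exact binomial 95% interval 7.21 to 36.4%), and 12 of 32 overlapped H2AK119ub, or 37.5% (21.1 to 56.3%). The shares over the whole wild-type list, 12.7% and 28.3%, lay inside these intervals, which cover counting error only. Of the 32 peaks, 16 came from AUTS2, and peaks of the same gene share a locus and are not replicates. The intervals therefore cannot decide whether the 10 genes differ from the whole list.

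Most of these YTHDF1 peaks were weak calls. Their fold enrichment ran from 2.62-fold to 3.77-fold with a median of 2.94-fold, where the whole wild-type list had a median of 2.89-fold. The strongest, by −log10 of the q-value, was an AUTS2 peak of 3.77-fold and 4.13 in the gene body (69666329 to 69667418), outside RNF2 and H2AK119ub. The USP7 and KDM2B start peaks followed with 3.66 and 3.25. The lowest −log10 q in the KD list was 4.007, and in the wild-type list it was 1.502. Only 1 of the 32 wild-type peaks, the AUTS2 peak, reached the lowest value of the KD list. For the other 31, loss of YTHDF1 in KD cells and the stricter threshold of the KD list cannot be told apart. The AUTS2 peak, at 4.13, lay close to that lowest value. With merged replicates, loss in KD cells cannot be told apart from a difference between the lists for this peak either. At AUTS2 the nearest KD peak lay 1680.9 kb from the gene, and the depth behind either list is unknown.

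**Figure D5:**
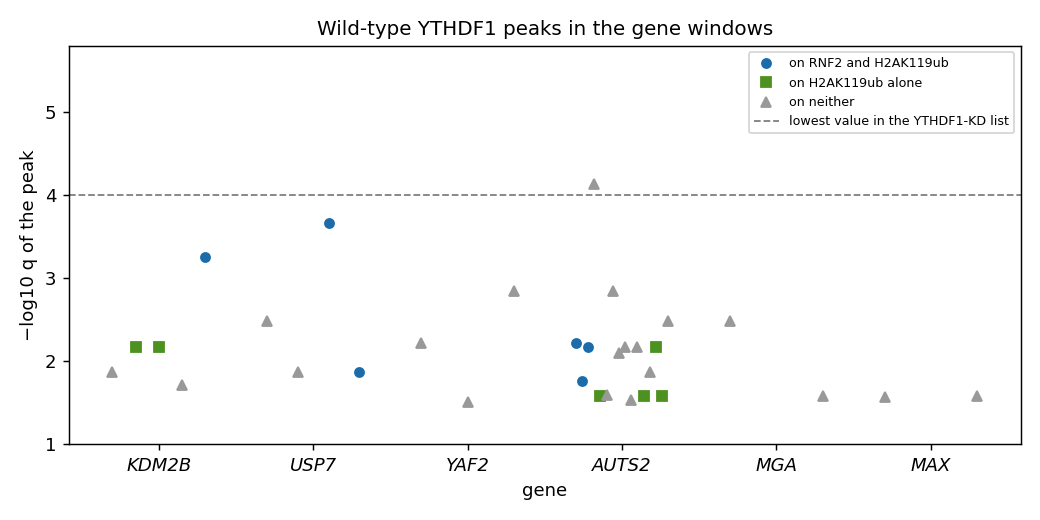
The −log10 q of each wild-type YTHDF1 peak in the 6 genes that have one, by whether it overlaps RNF2 and H2AK119ub (circles), H2AK119ub alone (squares) or neither (triangles). The dashed line is the lowest value in the list from YTHDF1 KD cells, 4.007, and only 1 AUTS2 peak lies above it. The USP7 and KDM2B peaks at 3.66 and 3.25 are the next strongest and lie on both PRC1 features.

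The other subunits of variant PRC1 were counted in the same way at their starts, from a list drawn up with earlier results of these data known. Of 19 genes 18 had a listed start, and FBRS had none. RNF2 was at 16 of these 18 (66.6% of coding genes) and H2AK119ub at 18 (74.3%). YTHDF1 was at 0 of the 18 in KD cells (0.436% of coding genes) and at 7 in wild-type cells (22.7%). PCGF1, the subunit that sets the complex of KDM2B and USP7, had the strongest start RNF2 peak of this list, 51.6-fold over 35.4 kb. The median of the 16 was 4.78-fold, where that of all coding genes with a start RNF2 peak was 4.77-fold. At least 10-fold was reached by 4 of the 16 and by 10.3% of those coding genes. For canonical PRC1, 10 of 13 genes had a listed start, with RNF2 at 9 and H2AK119ub at 10. Among these 10, YTHDF1 was at 1 in KD cells, PHC2, and at 1 in wild-type cells, PHC1, both named after their values had been seen. The shares of coding genes are those just given. BMI1, a PCGF subunit, led the canonical list with 59.5-fold. The catalytic genes RING1 and RNF2 both had RNF2 and H2AK119ub at the start, with up to 8.08-fold enrichment at RING1.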

How the data were processed

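The 4 deposited peak lists were used, 1 per ChIP group, in which the authors had merged the replicates. The submitters' processing notes name the build hg38 and the tools MACS2 2.1.0, SICER 1.1, Picard, SAMtools 1.3.1, Bowtie2 2.2.5 and Trimmomatic 0.35, and do not say which caller or thresholds gave which list. Both YTHDF1 lists and the RNF2 list have the narrow-peak layout, in which the authors deposited for each peak its summit, a score, the −log10 of its p-value and q-value, and its fold enrichment. This score was 10 times the −log10 p, up to 1000. The H2AK119ub list holds islands in steps of 200 bp, and the scale of their deposited score, at most 1000, is not stated. All these values are the authors' and were used within a list, except for a −log10 q minimum of 4 common to both YTHDF1 lists. Sequencing depth is unknown, since the lists give no read totals.

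Coordinates are 1-based on hg38. Genes on the 22 autosomes, X and Y came from RefSeq (GRCh38.p14), and starts and strand from its promoter table. A gene was counted for a list with at least 1 bp of a peak in the gene or 5 kb either side, or within 2 kb of its most upstream listed start. Strongest peaks were chosen by −log10 p, or by score and then width for islands. Exons, introns and genome sequence were not used here. Shares carry exact (Clopper-Pearson) 95% intervals. The overlap code, in Python 3.11.15 with pandas 2.3.3, NumPy 2.4.6 and SciPy 1.17.1, was tested on simulated peaks.

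The members, the gene lists, the rules and most alternatives were chosen with earlier results of these data known. All 10 members are named, and of the other listed genes the one with the strongest RNF2 peak at its start. Neighbouring genes under members' peaks were named in some cases only, chosen after values had been seen. The AUTS2, KDM2B and most upstream USP7 sequences were printed by a rule on their own peaks, and the E2F6, YAF2 and internal USP7 ones were picked outside that rule, so all 6 rest on values already seen. The alternatives were other flanks, start windows, overlaps and thresholds, and 2 other definitions of the start, chosen after seeing the data.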

Additional observations from a re-analysis of the deposited data

How the results depend on the processing

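Of 61 alternative values, 53 kept each count within 1.5 times the reported one or each share within its reported interval, and 8 did not. The counts of members with RNF2, H2AK119ub and knockdown YTHDF1 kept within that limit under each alternative run. The minimum −log10 q of 4 could not change the RNF2 and knockdown lists, whose lowest values are 4.006 and 4.007, so those values say nothing about stability. A minimum −log10 q of 4 left wild-type YTHDF1 at 1 of 10 genes in place of 6, AUTS2 (4.6% of coding genes), and all 3 wild-type features at 1 (4.32%). It left YTHDF1 at 0 of 10 starts (2.06%), and 0.0% of the single remaining YTHDF1 peak overlapped RNF2 or H2AK119ub (0 of 1 for each). With 500 bp around the start YTHDF1 was at 0 of 10 starts (17.6% of coding genes), and with the 5′ end of the gene in the gene table at 1, USP7 (22.5%). The share of RNF2 peaks on H2AK119ub was 94.4% without AUTS2 in place of 85.0%. With the better-scoring 50% of each list, RNF2 was left at 7 of 10 starts (51.1% of coding genes), without MAX, KDM2B and DCAF7. No paired analysis was possible because the replicates of each group had been merged into 1 list, and for the same reason no replicate could be left out.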

Other observations

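The nearest peak of the YTHDF1 KD list to any of the 10 genes lay 91.6 kb from MAX, at chromosome 14, 64914136 to 64914489, with 3.01-fold enrichment. It covered the lower-coordinate end of CHURC1-FNTB (64914361 to 65062655), a readthrough gene that overlaps MAX. The other 9 genes lay between 1157.1 kb (L3MBTL2) and 16961.7 kb (YAF2) from the nearest KD peak.

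By the percent of the window covered in the 3 wild-type lists, the 5 coding genes nearest to the median of the 10 members were HSPE1-MOB4, NSUN2, JAK1, EREG and CNOT9, at distances from 0.375 to 0.561 percentage points. NSUN2, for example, had 0.571% of its window under YTHDF1, 5.61% under RNF2 and 14.2% under H2AK119ub. EREG and CNOT9 had 0.0% under YTHDF1, where the median of the members was 0.545%. This likeness is over 3 lists only and is a description.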
